A study of Mus musculus with 6 samples.

Results

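Protocadherins, Kirrels, contactins and contactin-associated proteins are cell-surface adhesion molecules, and 85 of the 31319 genes in the deposited table belong to these families. The members were chosen by gene symbol alone, as names starting with Pcdh, Kirrel, Cntn followed by a digit, or Cntnap. They comprised 57 clustered protocadherins (14 Pcdha, 22 Pcdhb and 21 Pcdhg genes), 12 non-clustered protocadherins, 3 Kirrel genes, 6 contactins, 6 Cntnap genes and 1 antisense transcript, Kirrel3os, which the symbol rule also takes in. A filter on low counts was passed by 73 of the 85 members, 52 in the clusters and 21 outside them, among 18444 tested genes. The RNA came from the main olfactory epithelium of male C57BL/6 mice aged 5 months, and polyadenylated transcripts were sequenced in 6 libraries. The 3 KD libraries came from mice with a knockdown of the microRNAs miR-200b and miR-200a, and the 3 NC libraries from the group that the count headers call controls. The sources used here do not say how the knockdown was made, in which cells it acted or what the NC mice received. Whether the triplicates are separate mice is not stated either, so p-values reflect only the variation from library to library, which may be technical. Values of each group are given below in the order of the library numbers.

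Olfactory sensory neurons that express the same odorant receptor send their axons to the same glomeruli of the olfactory bulb, and homophilic adhesion molecules take part in sorting those axons. Kirrel2 and Kirrel3 are immunoglobulin-superfamily proteins whose levels in these neurons depend on the receptor and its activity, and they are known from work on like-with-like fasciculation. Clustered protocadherins give each neuron a combinatorial surface identity through stochastic promoter choice, and non-clustered protocadherins and contactins act in axon growth, branching and synapse formation. Contactins are anchored to the membrane by a lipid, and the Cntnap proteins are their transmembrane partners on axons.

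The mature microRNAs of the miR-200 family fall into groups by seed, the bases at positions 2 to 8 that pair with target transcripts. They are shown because their seeds define the site searched for in the members, with sequences from RefSeq (GRCm38.p6), written 5′ to 3′ with the seed in capitals. The first 3 share a seed, and the other two share a seed that differs from it.
mmu-miR-200b-3p: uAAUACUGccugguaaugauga
mmu-miR-200c-3p: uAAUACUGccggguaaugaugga
mmu-miR-429-3p: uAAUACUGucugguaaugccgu
mmu-miR-200a-3p: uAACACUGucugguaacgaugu
mmu-miR-141-3p: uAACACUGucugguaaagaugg

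The complements of these seeds, CAGTATT for miR-200b and CAGTGTT for miR-200a, were searched for in each gene's longest annotated 3′ UTR, and 22 of 83 members with such a UTR held at least 1. The sites below, in capitals within their flanking bases, are a selection and lie in some of the members whose values are described further on. They are read on the gene's own strand from GENCODE transcripts of GRCm38. Cntn4 held its site at chr6:106699087-106699093 on the plus strand. Pcdh8 held 2 at chr14:79767295-79767301 and chr14:79767162-79767168 on the minus strand, and Pcdh10 held 2, the first at chr3:45420761-45420767 on the plus strand. Kirrel held 1 at chr3:87080844-87080850 on the minus strand, and Pcdh9 held 1 at chr14:93015003-93015009 on the minus strand. The Pcdh9 site is followed by A, which makes it an 8-base match.
Cntn4, miR-200b site: aatattgtCAGTATTtcagctgt
Pcdh8, miR-200a site: accggtttCAGTGTTgtatatat
Pcdh8, miR-200b site: aatgtgtgCAGTATTtaattttt
Pcdh10, miR-200a site: aatgtagtCAGTGTTttattaat
Kirrel, miR-200a site: tgaatgacCAGTGTTgcttgtcg
Pcdh9, miR-200a site: aagtcaatCAGTGTTaaagtatt

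Members with a site had a median level difference that was below or near that of members without one. Over all tested members with an annotated 3′ UTR, the median log2 fold change, the base-2 logarithm of KD over NC in the fitted model, was -0.80 for 20 with a site and -0.44 for 52 without. Outside the clusters, 12 of 21 tested members had a site. Their median was -0.87, against -0.85 for the 9 without, with 11 of the 12 and 7 of the 9 below 0. The members whose sites are printed above were all below 0. Others with a site were Pcdh15 at 0.87, Pcdh19 at -0.14 and Pcdh17 at -0.28. Over all 15776 tested genes with an annotated 3′ UTR, 29.0% had a site, and the medians were -0.03 with and 0.04 without. The tested members outside the clusters have long 3′ UTRs, with a median of 2378 bases against 1175 over all such genes, so a match by length alone is more frequent in them. Of the 22 Pcdhb genes 8 held a site, and their median was -0.62 with all 8 below 0, against -0.17 for the 13 tested without, of which 8 were below 0. Of the 14 Pcdha and 20 Pcdhg genes with a 3′ UTR 0 held a site. That UTR is 2401 bases long in each Pcdha gene and 1741 or 1744 in each Pcdhg gene, from exons that each family shares. These genes therefore largely repeat the same letters and are not independent. The 83 members with a UTR include them, and the 52 tested without a site include 10 Pcdha and 20 Pcdhg genes. These medians were not tested against each other. A match is a description of the letters, not a site shown to act.

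The gene of miR-200b had 10, 0 and 28 counts in KD and 76, 54 and 47 in NC. The gene of miR-200a had 54, 3 and 52 counts in KD and 200, 87 and 84 in NC. All KD values lay below all NC values for both, an order that 18.6% of all tested genes had. The differences did not pass the test (edgeR quasi-likelihood, adjusted p = 0.29 and 0.31). Reads in poly(A) libraries come from precursors, not from the mature microRNAs, and how the knockdown was made is not stated. These counts therefore cannot check the labels. Total counts ran from 15704791 to 17618540. The libraries differed widely in neuronal RNA. The summed level of 10 markers of mature olfactory neurons was 3493, 72.5 and 4357 counts per 1000000 library counts (CPM, scaled by edgeR's TMM factors) in KD, and 11790, 8843 and 7427 CPM in NC. KD-2 stood apart, with 149 counts of Omp, the olfactory marker protein, although 0 of the 10 markers were at 0 counts there. In bulk tissue, fewer neurons and less RNA per neuron cannot be told apart. The 5 markers of sustentacular cells, the supporting cells of the epithelium, summed to 2370, 245 and 3066 CPM in KD and 5275, 3576 and 3789 CPM in NC. The 5 markers of neuronal progenitors summed to 137, 15.01 and 205 CPM in KD and 439, 321 and 293 CPM in NC. KD-2 was thus the lowest library, and all KD sums lay below all NC sums, for supporting cells and progenitors as for neurons.

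Across the 73 tested members, levels were mostly lower in KD than in NC, by amounts that did not pass the test. The log2 fold change was below 0 for 60 members and above 0 for 13, where 49.4% of all tested genes were below 0, and its median was -0.55 against 0.007 over all tested genes. The 21 tested members outside the clusters had a median of -0.85, and the 52 in the clusters -0.46. At a Benjamini-Hochberg adjusted p under 0.05 over all tested genes, edgeR called 0 members and 0 of all genes (0%), with a smallest adjusted p among members of 0.28. At an unadjusted p under 0.05, 10 members were lower (9.25% of all tested genes) and 1 was higher (8.7% of all tested genes). All 3 KD values lay below all 3 NC values for 23 members (18.6% of all tested genes) and above them for 2 (15.3% of all tested genes). DESeq2 on the same counts called 1 member lower (1.07% of tested genes were called lower) and 0 higher (0.821% were called higher). These counts describe the members that passed the filter and support no direction, because 26 of the 73 had fewer than 3 KD libraries past its minimum, 21 of them with all 3 NC libraries past it. With KD-2 and NC-1 left out, the median over members was -0.31, with 49 below 0 and 24 above. The medians outside and inside the clusters were -0.29 and -0.33 in that fit, and -1.46 and -0.75 with KD-3 left out. Leaving out NC-1 alone gave -0.53 outside the clusters.

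**Figure D1:**
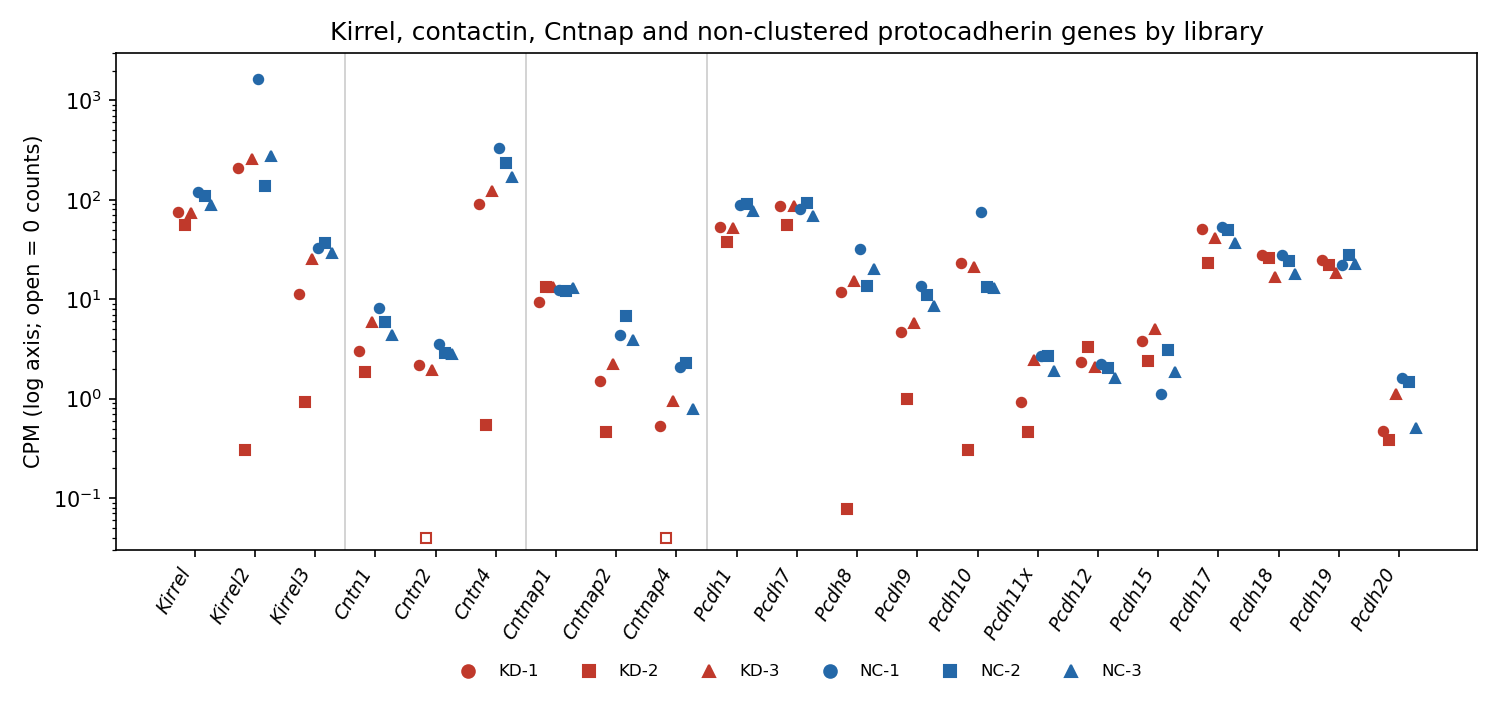
Level of each tested member outside the clusters in CPM on a log axis, with KD in red, NC in blue and the marker shape giving the library number. Cntn4, Kirrel2, Kirrel3, Pcdh8 and Pcdh10 have KD-2 values more than 10 times below KD-1 and KD-3, and Kirrel2 and Pcdh10 have an NC-1 value far above the other NC libraries.

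Kirrel2, which codes for a homophilic adhesion protein that olfactory neurons express in proportion to their activity, had the highest level per length of all members. Its NC mean was 175 CPM per kilobase of exon shared with no other gene. Its values were 211, 0.306 and 255 CPM in KD, and 1654, 138 and 277 CPM in NC. The groups overlap: NC-2 lies below KD-1 and KD-3, and the extremes are 1 library of each group. Its log2 fold change was -2.15 with a standard error (SE) of 1.80 (n = 3 and 3, edgeR adjusted p = 0.48). The value was -0.42 with NC-1 left out, and 0.18 with KD-2 left out as well. NC-1 was 11.95 times NC-2 and 5.98 times NC-3, and only 74 of the 18444 tested genes (0.401%) had NC-1 at least 4 times above each other NC library. Pcdh10 was the other member among those 74. Per 1000 counts of Omp, Kirrel2 had 148, 26.9 and 138 counts in KD and 386, 40.8 and 79.7 in NC, so NC-1 remained the highest library.

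The gene next to Kirrel2 is read in the opposite direction. Kirrel2 lies at chr7:30447534-30457690 on the minus strand, and Nphs1, the gene of nephrin, a partner of Kirrel proteins in the kidney filter, starts 624 bases away on the plus strand. Nphs1 had 13.96, 0 and 10.5 CPM in KD and 59.3, 43.6 and 52.9 CPM in NC, so its NC values were alike where those of Kirrel2 were not. Nphs1 had a log2 fold change of -2.66 (SE 1.20, edgeR adjusted p = 0.29), and all KD values lay below all NC values.

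The promoter of Kirrel2 is shown because it faces that neighbour and because it alone, of the members' promoters found, matched CCCNNGGG, a core of the sites bound by EBF factors of olfactory neurons. It runs over chr7:30457466-30457765 of GRCm38.p6 on the minus strand, from 250 bases before to 50 bases after the start, in RefSeq's table, with the matches in capitals. The motif reads the same on both strands, and its matches here lie within the 50 bases after RefSeq's start. That start lies inside the Kirrel2 span given above, which comes from GENCODE and reaches 30457690. The printed bases up to that position are thus within the annotated gene.
Kirrel2 promoter: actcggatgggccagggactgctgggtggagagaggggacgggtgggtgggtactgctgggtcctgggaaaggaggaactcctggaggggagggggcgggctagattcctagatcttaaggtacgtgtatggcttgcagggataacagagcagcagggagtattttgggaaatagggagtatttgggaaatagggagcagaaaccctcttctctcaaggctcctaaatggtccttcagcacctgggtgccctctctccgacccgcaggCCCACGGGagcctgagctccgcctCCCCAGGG
Among the 28 promoter entries found for 21 members, 1 held CCCNNGGG, against 13.7% of 32851 promoters of the same length. TGACGTCA, the cyclic-AMP response element, was in 0 of the 28, against 1.79% of all promoters. TAATTA, a core of LIM-homeodomain sites, was in 1 of them, a promoter of Cntn4, against 5.29% of all. Ebf1, the EBF gene of the progenitor marker list, had 65.1, 13.6 and 91.2 CPM in KD and 192, 137 and 104 CPM in NC. Its part in the level of Kirrel2 was not tested.

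Kirrel3, whose product also adheres to itself and marks a set of olfactory axons that differs from the Kirrel2 set, had 11.4, 0.919 and 25.5 CPM in KD and 32.4, 37.1 and 29.3 CPM in NC. All KD values lay below all NC values, with KD-3 near the NC range. Its log2 fold change was -1.38 (SE 0.92, edgeR adjusted p = 0.40), and -0.81 with KD-2 left out. On the Omp scale used for Kirrel2, Kirrel3 had 8.02, 80.5 and 13.8 counts in KD and 7.57, 10.9 and 8.45 in NC. The groups overlap on that scale, and the KD-2 value rests on 12 Kirrel3 counts and 149 Omp counts. The antisense transcript Kirrel3os had 12, 3 and 3 counts in KD and 7, 10 and 4 in NC and was not tested. It lies within Kirrel3 on the opposite strand, and the annotated exons of the pair do not overlap. Kirrel, the most widely expressed gene of the family and known from the kidney filter, had 75.4, 55.9 and 73.7 CPM in KD and 121, 109 and 88.9 CPM in NC. KD-2 is close to the other KD libraries here, unlike for Kirrel2 and Kirrel3. Kirrel had a log2 fold change of -0.64 (SE 0.19, edgeR adjusted p = 0.28, unadjusted p = 0.014), and -0.49 without KD-2. Of 8 tested Kirrel partners, scaffold and signalling proteins, 0 passed the test, 5 were below 0 and 3 above. Magi1, a junctional scaffold, had a log2 fold change of -0.67, Grb2, an adaptor, 0.46, and Magi2, another scaffold, -1.23.

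Cntn4, which codes for a contactin that some olfactory neurons carry on their axons, was the second most abundant member per length, with an NC mean of 29.0 CPM per kilobase. It had 91.0, 0.536 and 122 CPM in KD and 331, 237 and 171 CPM in NC. All KD values lay below all NC values, and KD-2 was at 0.503% of the mean of KD-1 and KD-3. In the fit, Cntn4 had a log2 fold change of -1.79 (SE 1.36, edgeR adjusted p = 0.44), -1.18 with KD-2 left out and -0.91 with KD-2 and NC-1 left out. Per 1000 counts of Omp, Cntn4 had 64.2, 47.0 and 66.2 counts in KD and 77.3, 69.7 and 49.1 in NC, and on that scale the groups overlap. Cntn1, a contactin of many axons and of myelin junctions, had 3.04, 1.84 and 5.95 CPM in KD and 8.08, 5.87 and 4.37 CPM in NC, which overlap. Cntn2, an axonal contactin also called TAG-1, had 2.16, 0 and 1.93 CPM in KD and 3.58, 2.86 and 2.80 CPM in NC. A count of 0 in KD-2 allows up to 3 counts, or 0.230 CPM. Fitted log2 fold changes were -0.75 for Cntn1 (SE 0.49) and -1.15 for Cntn2 (SE 1.01), and neither passed the edgeR test (adjusted p = 0.39 and 0.50). The other contactins did not pass the filter. Cntn3 had 3, 0 and 1 counts in KD and 8, 15 and 8 in NC, Cntn6 had 1, 0 and 0 in KD and 0, 0 and 7 in NC, and Cntn5 had 1, 0 and 1 in KD and 0 in every NC library.

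Cntnap2, or Caspr2, which gathers potassium channels beside the nodes of axons, had 1.52, 0.460 and 2.205 CPM in KD and 4.38, 6.79 and 3.87 CPM in NC. The groups do not overlap, and the log2 fold change was -1.83 (SE 0.58, edgeR adjusted p = 0.28, unadjusted p = 0.019), and -1.40 without KD-2. Cntnap1, or Caspr, which forms the junction between axon and myelin with Cntn1, had 9.46, 13.4 and 13.2 CPM in KD and 12.3, 12.1 and 12.8 CPM in NC. It was level between the groups within their spread, at a log2 fold change of -0.05 (SE 0.20), and KD-2 was its highest library. Cntnap4 had 0.526, 0 and 0.937 CPM in KD and 2.097, 2.30 and 0.785 CPM in NC, which overlap, with a log2 fold change of -1.76 (SE 0.95). Cntnap5a, Cntnap5b and Cntnap3 did not pass the filter. Cntnap5b had 1, 0 and 0 counts in KD and 12, 11 and 4 in NC, Cntnap5a had 2, 0 and 2 in KD and 5, 8 and 4 in NC, and Cntnap3 had 0 in all KD libraries and 3, 4 and 0 in NC.

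The partners of contactins and Cntnap proteins were lower in KD for 13 of 17 tested genes and higher for 4, with a median log2 fold change of -0.97 and 0 past the edgeR threshold. L1cam, an adhesion molecule of axons, had a log2 fold change of -0.97 (SE 0.27). Notch1, the receptor that some contactins bind, had 0.65 (SE 0.20). Of 17 genes listed for the sorting and guidance of olfactory axons, 14 were below 0 and 3 above, with a median of -0.89. In that list Robo2 had a log2 fold change of -1.16 and Adcy3, the cyclase of odour transduction, -2.18, while Sema3f, a repellent ligand, had 0.76. The 10 mature neuron markers had a median of -1.80 with all 10 below 0, and the 7 immature neuron markers -1.34 with all 7 below 0. The sums of both marker lists lay lower in every KD library than in every NC library. Cntn4, Kirrel3 and Cntnap2 are among the 23 of 73 tested members with that order. Their KD-2 levels differed, at 0.503%, 4.99% and 24.7% of the mean of KD-1 and KD-3. Omp had 1419, 11.4 and 1843 CPM in KD. Whether the members follow the markers across libraries, and the part of the markers in the members' values, was not tested.

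Among the 12 non-clustered protocadherins, all of which were tested, 9 were below 0 and 3 above, with a median of -0.57. Pcdh1, found in epithelia as well as neurons, had 53.5, 37.6 and 52.0 CPM in KD and 89.2, 91.0 and 77.4 CPM in NC. The groups are apart by more than the spread within each. Its log2 fold change was -0.85 (SE 0.18, unadjusted p = 0.0030), the smallest p of all members. It did not pass the edgeR test (adjusted p = 0.28), and it passed in DESeq2 (log2 fold change -0.87, adjusted p = 0.026). Without KD-2 the edgeR value was -0.68. Pcdh1 (chromosome 18, 38185914 to 38212053, minus strand) lies beyond the protocadherin clusters on the same chromosome and is not part of them.

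Pcdh9, a protocadherin of neural circuits, had 4.73, 0.996 and 5.79 CPM in KD and 13.7, 10.98 and 8.63 CPM in NC, with no overlap. Pcdh9 had a log2 fold change of -1.52 (SE 0.61, edgeR adjusted p = 0.28, unadjusted p = 0.046), and -1.05 without KD-2. Pcdh8, an activity-induced protocadherin also called arcadlin, had 11.7, 0.0766 and 15.2 CPM in KD and 32.0, 13.6 and 19.9 CPM in NC. KD-3 lies above NC-2, so the groups overlap. The log2 fold change was -1.27 (SE 1.16), -0.67 with KD-2 left out and -0.29 with KD-2 and NC-1 left out. On the Omp scale used for Kirrel2, Pcdh8 had 8.27, 6.71 and 8.26 counts in KD and 7.48, 4.02 and 5.73 in NC. The groups overlap there too, with KD-1 and KD-3 above every NC library, and KD-2 rests on 1 Pcdh8 count. Pcdh10, which is known in olfactory axons, had 23.1, 0.306 and 21.2 CPM in KD and 75.3, 13.1 and 12.9 CPM in NC. KD-1 and KD-3 lie above NC-2 and NC-3, and its log2 fold change of -1.18 (SE 1.29) became 0.20 without NC-1 and 0.79 without NC-1 and KD-2. Like Kirrel2, Pcdh10 was set by 1 library in each group. On the same Omp scale, Pcdh10 had 16.25, 26.85 and 11.5 counts in KD and 17.6, 3.87 and 3.71 in NC. These overlap, with all KD values above NC-2 and NC-3, and KD-2 rests on 4 Pcdh10 counts.

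Several other non-clustered genes had overlapping groups and log2 fold changes near 0. Pcdh7 had 85.8, 55.2 and 87.0 CPM in KD and 81.7, 93.0 and 69.3 CPM in NC. Pcdh17 had 50.6, 23.0 and 41.2 CPM in KD and 53.1, 50.01 and 36.8 CPM in NC. Both overlap, with KD-2 as the lowest library. Pcdh18 had a log2 fold change of 0.01 (SE 0.26) and Pcdh19, the protocadherin of an X-linked epilepsy, -0.14 (SE 0.18), and their values ran from 16.6 to 28.0 and from 18.5 to 27.6 CPM over the 6 libraries. The sign of the log2 fold change of Pcdh7, Pcdh17 or Pcdh18 turned when 1 library was left out or, for Pcdh18, under another scaling. Pcdh12, a protocadherin of endothelial cells, had 2.34, 3.29 and 2.09 CPM in KD and 2.22, 2.04 and 1.63 CPM in NC, with its highest value in KD-2. The summed endothelial markers were 369, 524 and 303 CPM in KD and 133, 190 and 267 CPM in NC, highest in KD-2 as well. Pcdh15, the tip-link protocadherin of hair cells, had 3.80, 2.37 and 4.96 CPM in KD and 1.11, 3.12 and 1.85 CPM in NC, with a log2 fold change of 0.87 (SE 0.49, edgeR adjusted p = 0.34). Pcdh11x and Pcdh20 had log2 fold changes of -0.90 and -0.85, with overlapping values of at most 2.66 and 1.60 CPM. Outside these genes, 28 tested members of the wider cadherin superfamily split into 11 below 0 and 17 above with a median of 0.18, among them Cdh23 at -1.36, Dsg2 at 0.50 and Cdh5 at 1.27, with 0 past the edgeR threshold and 1 in each direction in DESeq2.

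**Figure D2:**
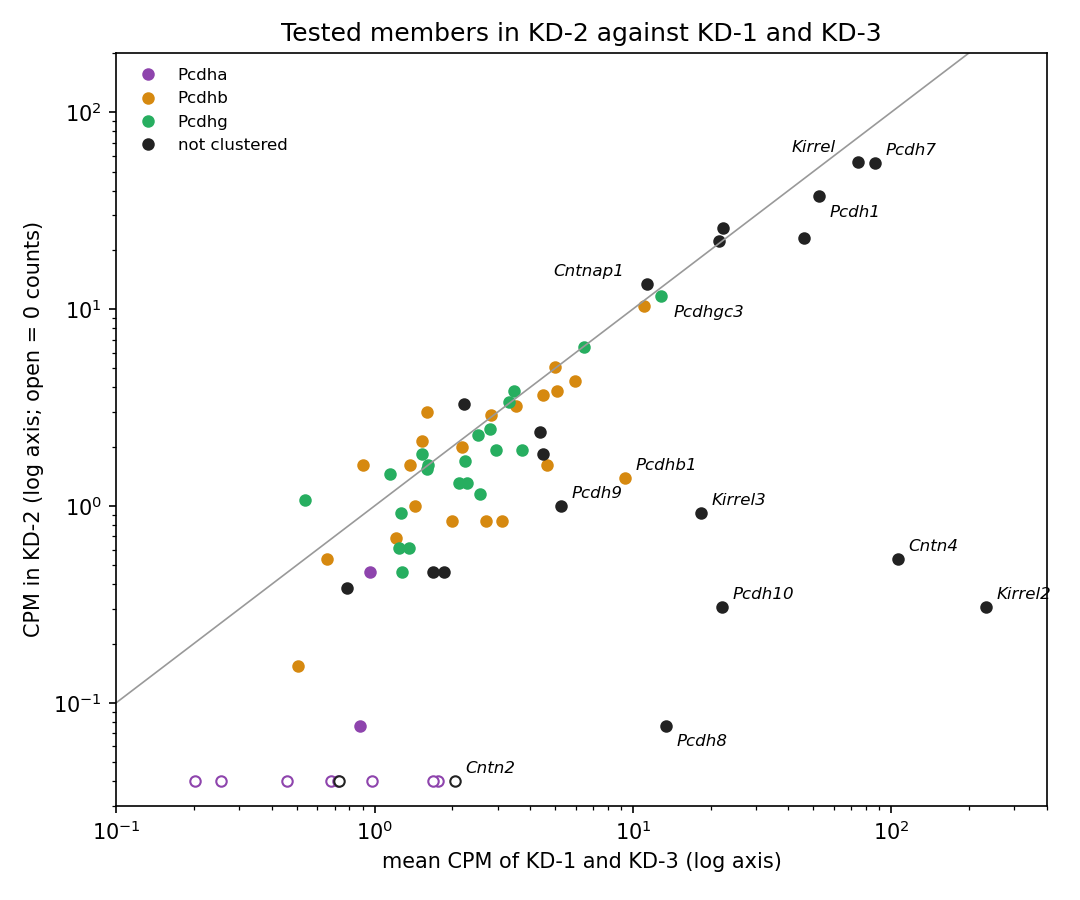
Level of each tested member in KD-2 (vertical, CPM, log axis) against the mean of KD-1 and KD-3 (horizontal, CPM, log axis), with the line of equal levels. Most Pcdhb and Pcdhg genes lie near the line, and Kirrel2, Cntn4, Pcdh8, Pcdh10 and 9 of the 10 Pcdha genes lie far below it (open symbols mark 0 counts).

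In KD-2, the library with the lowest sums of neuronal and sustentacular markers and the highest of basal and endothelial markers, the levels of members spread widely relative to KD-1 and KD-3. Over all tested genes, 7.19% had a KD-2 level under 10% of the mean of KD-1 and KD-3. That held for 9 of 10 tested Pcdha genes, 0 of 21 Pcdhb genes, 0 of 21 Pcdhg genes and 2 of 12 non-clustered protocadherins. It also held for 2 of 3 Kirrel genes, 2 of 3 tested contactins and 1 of 3 tested Cntnap genes. The median KD-2 level relative to the other KD libraries was 81.7% for Pcdhb and 87.6% for Pcdhg genes, and 99.3% over all tested genes. The Pcdha values rest on few counts: all 10 tested genes had fewer than 3 KD libraries past the filter's minimum, and 9 had all 3 NC libraries past it, so for several of them a 0 in KD-2 lies near what the depth can show. This describes 1 library, without a replicate.

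The 3 clustered families lie next to each other on chromosome 18, Pcdha at 36930184 to 37187661, Pcdhb at 37264938 to 37524479 and Pcdhg at 37661793 to 37841873 (GRCm38). Each Pcdha or Pcdhg gene has its own first exon and promoter and is spliced to constant exons that its whole family shares, whereas the Pcdhb genes have no such constant exons. Pcdha4 had at most 4 counts in any library although its annotation includes the shared exons, so reads in those exons were not given to each gene. The values below mainly reflect the variable first exons.

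**Figure D3:**
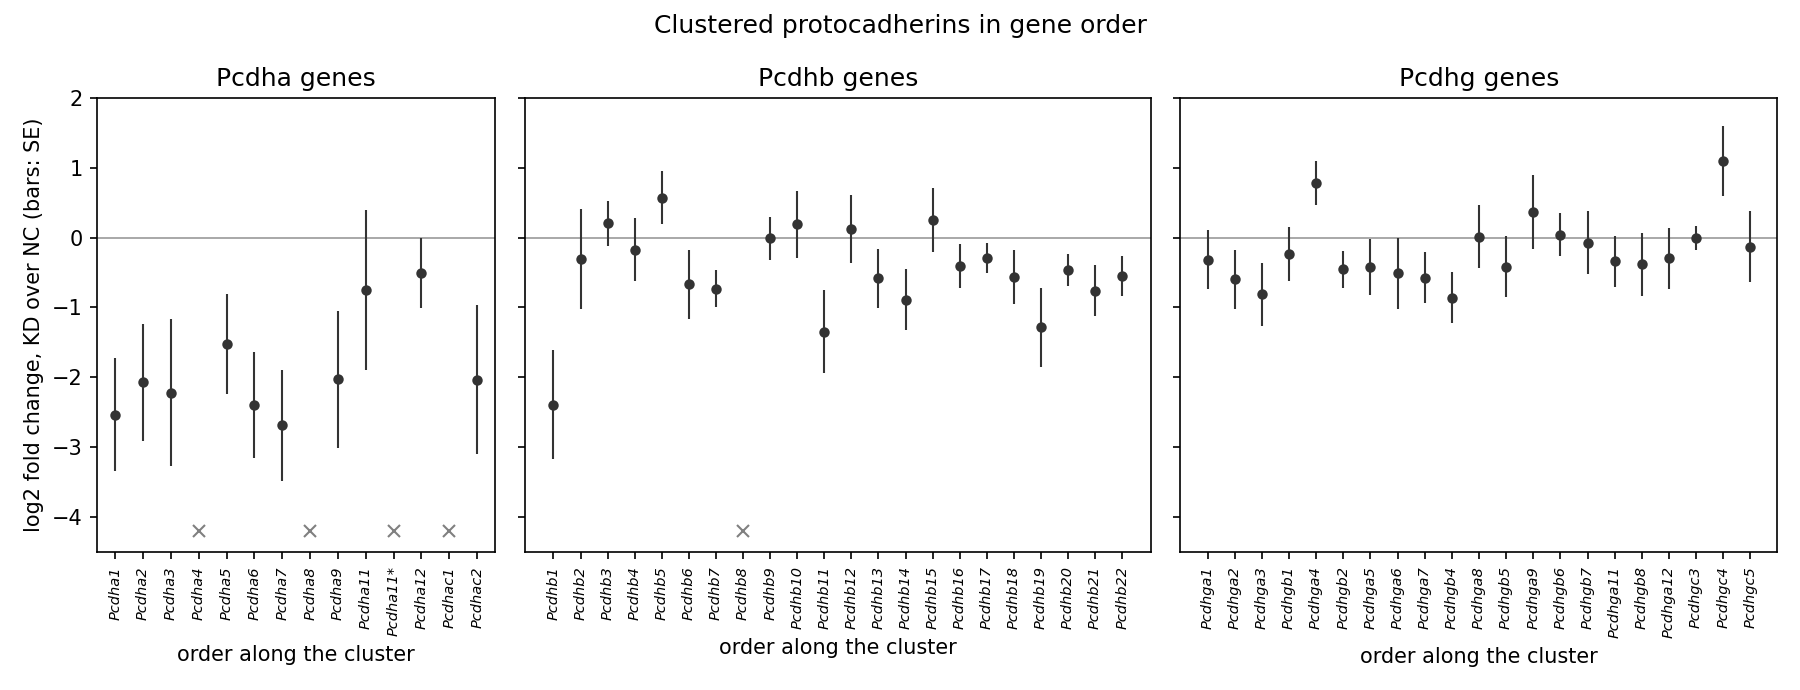
Log2 fold change of KD over NC with its SE for the clustered protocadherins in their order along the chromosome, with crosses at the foot for genes that did not pass the filter, the asterisk marking the second gene ID named Pcdha11. Most Pcdha genes and Pcdhb1 lie lowest, and most Pcdhb and Pcdhg genes lie between -1 and 0.

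The Pcdha genes were the lowest of the clustered families in KD relative to NC. Summed over all 14 genes, they had 117, 7 and 195 counts in KD and 483, 473 and 284 in NC, or 6.83, 0.536 and 10.8 CPM against 29.8, 24.2 and 15.9 CPM. All KD values lay below all NC values, and the log2 ratio of the group means was -1.95, or -1.41 with KD-2 left out and -1.19 with KD-2 and NC-1 left out. An exact permutation test of 3 against 3 libraries cannot give a two-sided p below 0.1, and no other test was run on the sum. All 10 tested Pcdha genes were below 0, with log2 fold changes from -2.69 to -0.51 and a median of -2.06. With KD-2 and NC-1 left out, 8 were below 0 and 2 above, with a median of -1.34. Since 10 of the 10 had fewer than 3 KD libraries past the filter's minimum and 9 passed through the NC libraries, these values are partly set by the filter. The other 4 were not tested: Pcdhac1 had 0.0584, 0 and 0.165 CPM in KD and 0.863, 0.817 and 0.224 CPM in NC, and Pcdha4, Pcdha8 and the second Pcdha11 ID had at most 0.247 CPM in any library.

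Pcdha3 and Pcdhac2, the most counted genes of the family, show the pattern at the highest depth. Pcdha3 had 1.11, 0 and 2.43 CPM in KD and 6.60, 6.23 and 4.04 CPM in NC, with a log2 fold change of -2.22 (SE 1.05, edgeR adjusted p = 0.30). Pcdhac2, a C-type isoform that many neurons use without random choice, had 1.11, 0 and 2.26 CPM in KD and 7.09, 4.34 and 2.75 CPM in NC, with a log2 fold change of -2.04 (SE 1.07, edgeR adjusted p = 0.32). Both have no overlap between groups. Pcdha7, Pcdha1 and Pcdha6 had the smallest p of the family, with log2 fold changes of -2.69, -2.54 and -2.40 and edgeR adjusted p = 0.28 each. For these 3 genes 0 KD libraries were past the filter's minimum. They were tested through the NC libraries alone, so their low values and small p are partly set by the filter. Pcdha7 had 0.292, 0 and 0.1102 CPM in KD and 1.11, 1.12 and 0.617 CPM in NC. In KD-2, 8 of the 10 tested Pcdha genes had 0 counts. The exception to the low KD-2 level, Pcdha12, named after its values were seen, had 0.818, 0.460 and 1.10 CPM in KD and 1.73, 0.715 and 1.01 CPM in NC.

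Per 1000 counts of Omp, the Pcdha sum was 4.81, 47.0 and 5.83 counts in KD and 6.96, 7.12 and 4.59 in NC. On that scale the groups overlap, and the highest value is that of KD-2, which rests on 7 Pcdha counts and 149 Omp counts. The summed neuron markers were lower in each KD library than in each NC library, and their part in the Pcdha values was not tested.

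**Figure D4:**
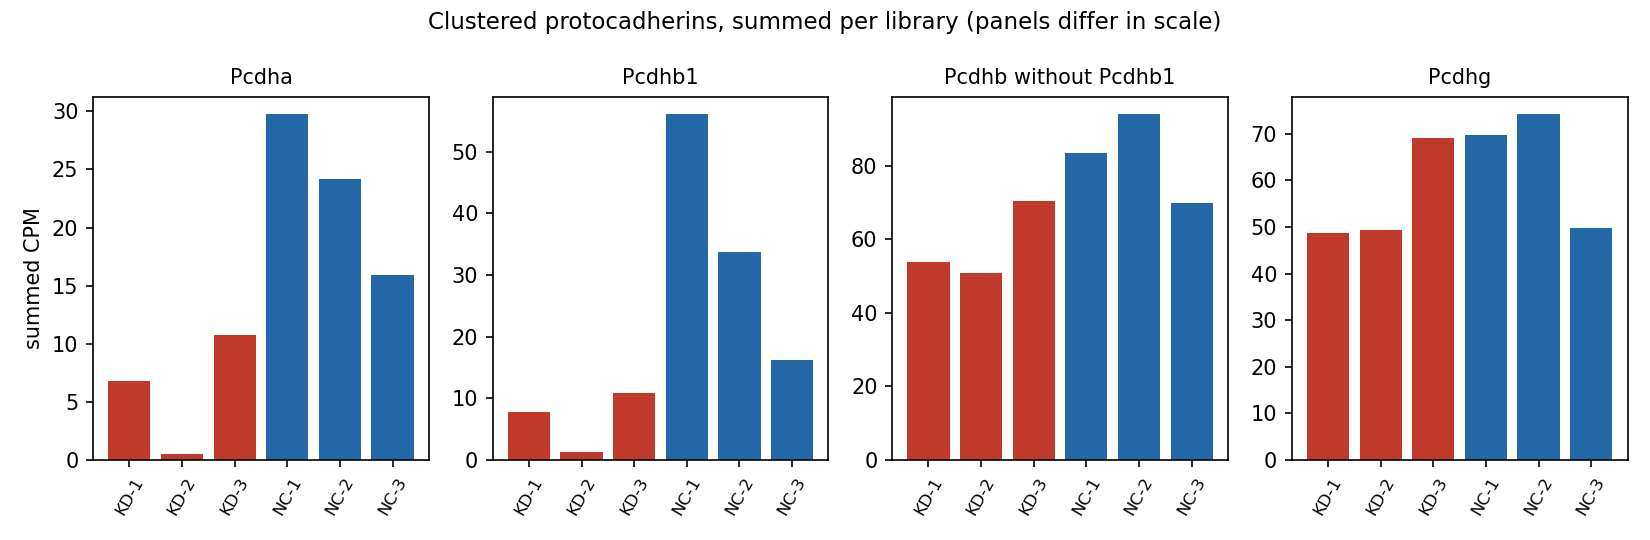
Summed CPM of the Pcdha genes, Pcdhb1, the other Pcdhb genes and the Pcdhg genes in each library, with KD in red and NC in blue and a separate scale from 0 in each panel. The KD bars of Pcdha and Pcdhb1 all lie below the NC bars with KD-2 near 0, and the Pcdhg bars overlap between groups.

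Pcdhb1 stood apart from the rest of its family in these values and lay near the Pcdha genes. It was the most counted Pcdhb gene and, at an NC mean of 13.7 CPM per kilobase, the most abundant clustered protocadherin per length. It had 7.83, 1.38 and 10.8 CPM in KD and 56.1, 33.7 and 16.1 CPM in NC. The groups do not overlap, with a log2 fold change of -2.39 (SE 0.78, edgeR adjusted p = 0.28, unadjusted p = 0.021), or -1.90 with KD-2 left out and -1.39 with KD-2 and NC-1 left out. KD-2 was at 14.8% of the mean of the other KD libraries, the lowest of the 21 tested Pcdhb genes. Per 1000 Omp counts, Pcdhb1 had 5.51, 121 and 5.86 counts in KD and 13.1, 9.93 and 4.65 in NC, which overlap.

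Among the other Pcdhb genes 0 passed the edgeR test, and 1 of 20 was lower at an unadjusted p under 0.05, against 9.25% of all tested genes. Without Pcdhb1, the family sum was 53.8, 50.7 and 70.3 CPM in KD and 83.5, 94.1 and 69.9 CPM in NC, where KD-3 lies just above NC-3, and the median log2 fold change of 20 tested genes was -0.43 with 15 below 0 and 5 above. Pcdhb7 had 5.20, 4.29 and 6.72 CPM in KD and 9.75, 9.40 and 7.79 CPM in NC, with a log2 fold change of -0.73 (SE 0.26, edgeR adjusted p = 0.28, unadjusted p = 0.030). Pcdhb20 had 4.496, 5.06 and 5.46 CPM in KD and 7.22, 7.15 and 6.33 CPM in NC, with a log2 fold change of -0.46 (SE 0.22), also with no overlap. Pcdhb17, the second most counted, had 9.64, 10.4 and 12.4 CPM in KD and 13.3, 15.4 and 11.04 CPM in NC, which overlap. In the opposite direction, Pcdhb5 had 1.69, 2.99 and 1.49 CPM in KD and 1.23, 1.48 and 1.40 CPM in NC, with a log2 fold change of 0.57 (SE 0.38). Pcdhb8 was not tested, at most 0.511 CPM in any library.

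The Pcdhg family was close to level. Its sum was 48.7, 49.4 and 69.1 CPM in KD and 69.8, 74.3 and 49.8 CPM in NC, which overlap, and the log2 ratio of the means was -0.21, or -0.07 with KD-2 and NC-1 left out. Of 21 tested genes 16 were below 0 and 5 above, with a median of -0.32, and 11 were below and 10 above with KD-2 and NC-1 left out. Pcdhgc3, the most abundant Pcdhg gene and a C-type isoform that is expressed outside neurons as well, had 11.5, 11.6 and 14.3 CPM in KD and 12.8, 12.9 and 11.9 CPM in NC. Its log2 fold change was -0.004 (SE 0.18), the closest to 0 of all members, and KD-2 was like the other KD libraries. Pcdhgc4, the C-type isoform tied to neuronal survival, had 0.876, 1.53 and 2.31 CPM in KD and 0.493, 1.02 and 0.673 CPM in NC. Its log2 fold change of 1.10 (SE 0.50, edgeR adjusted p = 0.29) was the highest of all members, though the groups overlap. Pcdhga4 had 1.93, 1.69 and 2.54 CPM in KD and 1.17, 1.33 and 1.07 CPM in NC, with a log2 fold change of 0.78 (SE 0.32, edgeR adjusted p = 0.28, unadjusted p = 0.047), and was the member with the smallest p among those higher in KD. Pcdhgb2 and Pcdhgb4, the latter named after its values were seen, had all KD values below all NC values, at -0.45 and -0.86.

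The clustered counts were also divided by family within each library. The Pcdha genes took 5.83%, 0.526% and 6.68% of all clustered counts in KD, and 12.4%, 10.7% and 10.5% in NC. The highest KD library had an exact 95% interval of 5.80% to 7.64%, and the lowest NC library one of 9.37% to 11.7%, for counting error alone. The Pcdhg genes took 41.6%, 48.4% and 42.9% in KD and 29.2%, 32.8% and 32.8% in NC. The Pcdhb genes took 52.6%, 51.0% and 50.4% in KD and 58.4%, 56.5% and 56.7% in NC. Each of the 3 shares had no overlap between groups, though an exact permutation test of 3 against 3 cannot give a two-sided p below 0.1. For Pcdhb this rests on Pcdhb1, which had 134, 18 and 196 counts in KD and 910, 660 and 288 in NC. With Pcdhb1 left out of the family and of the total, the Pcdhb shares overlap between groups. The neuron and sustentacular marker sums likewise had all KD libraries below all NC libraries, and their part in the shares was not tested. The shares of 1 library are tied to each other because they add up to the whole.

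Genes that shape which clustered protocadherin is expressed were mixed. Of 17 tested genes of this list 11 were below 0 and 6 above, with a median log2 fold change of -0.12, and 0 passed the edgeR threshold. Tet3, an enzyme that oxidises methylcytosine, had 78.0, 94.1 and 86.1 CPM in KD and 24.1, 42.5 and 47.8 CPM in NC, with a log2 fold change of 1.17 (SE 0.27, edgeR adjusted p = 0.28), and was called higher by DESeq2 (adjusted p = 0.026). Dnmt3a, a DNA methyltransferase, had 55.6, 38.8 and 61.2 CPM in KD and 94.4, 90.1 and 76.5 CPM in NC, with a log2 fold change of -0.75 (SE 0.21). Wiz, a zinc-finger protein of chromatin loops, had a log2 fold change of -0.33 with overlapping groups. Of 11 signalling genes downstream of protocadherins 4 were below 0 and 7 above, with a median of 0.08. In that list Cyfip1, a subunit of the WAVE complex that protocadherin tails recruit, had a log2 fold change of 0.78 (SE 0.19), Wasf1, the neuronal WAVE protein, -1.09 (SE 0.41), and Ptk2b, a kinase that clustered protocadherins hold in check, 0.70 (SE 0.28).

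Markers of other cell types were mixed. The 6 fibroblast markers had a median log2 fold change of 0.09, with 1 below 0 and 5 above. For the 4 respiratory ciliated markers it was 0.13, with 2 below 0 and 2 above. Their sums were 475, 531.5 and 529 CPM in KD and 356, 469 and 420.5 CPM in NC. The 5 plasma and immune markers summed to 8409, 11960 and 4946 CPM in KD and 1400, 4955 and 7681 CPM in NC, which overlap. The 5 horizontal basal cell markers summed to 942, 1070 and 624 CPM in KD and 172, 375 and 497 CPM in NC, the reverse order of the neuron markers. The 9 markers of ensheathing and Schwann glia summed to 125, 114 and 140 CPM in KD and 209, 175 and 148 CPM in NC, with all KD sums below all NC sums. Of these 9, 8 had log2 fold changes below 0, and Mbp, named after its values were seen, was at 0.32. Glial markers are relevant to Cntnap1, Cntn1 and Cntn2, and their part in those values was not tested. Of 7 markers of olfactory bulb and brain, only 3 passed the filter, and the sums were 73.2, 3.14 and 83.9 CPM in KD and 256, 173 and 136 CPM in NC, with Snap25, which olfactory neurons express too, making up most of the sum in each library but KD-2.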

How the data were processed

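Polyadenylated RNA of the main olfactory epithelium was sequenced in 3 KD and 3 NC libraries, grouped by sample title. The authors deposited raw counts per gene, with a signal column holding their mean of scaled counts, a log2 fold change and an unadjusted p-value per the file headers, and only the counts were used here. Per the submitters' processing notes the tools were HTSeq 0.6.0, HISAT2 2.1.0, TopHat2, Bowtie2 2.2.3, DESeq and DESeq2, with their roles not named, on GRCm38. Counting mode and annotation release were not given in the sources used here.

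From the counts, edgeR 4.0.16 (R 4.3.3) gave TMM factors, its default filter, CPM and a two-sided quasi-likelihood test of KD against NC over 18444 genes, with Benjamini-Hochberg adjustment and a threshold of 0.05. Each SE is the size of the log2 fold change over the square root of F. The fit's biological coefficient of variation came to 40.9%. Levels are compared between genes per 1000 exonic bases that belong to no other gene. Exact intervals at 95% and the floor of 3 counts cover counting error only. The scripts were tested on simulated data. Alternatives used DESeq2 1.42.0, limma 3.58.1, other filters and scaling, a replicate block and left-out libraries.

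The members and lists were chosen with earlier results of these data known. Members outside the clusters are named if tested, or with their counts. In each cluster the rule named the 4 genes with the most counts and the C-type genes, and overall the 3 smallest p-values in each direction. Up to 3 genes of each related list are named by smallest p, and Nphs1 by its position. Pcdhga10 and Cntnap5c were not analysed here. 1 gene of a related list is not reported here by name.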

Additional observations from a re-analysis of the deposited data

How the results depend on the processing

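Across the alternatives, edgeR and limma-voom called 0 members, and DESeq2 called 1, Pcdh1, with 347 of all genes (151 higher, 196 lower), where edgeR called 0 in all but the fit without KD-2 and NC-1, which gave 3. With each library left out in turn, edgeR called 0 genes. The median log2 fold change outside the clusters ran from -1.46 (without KD-3) to -0.53 (without NC-1), and was -0.29 without KD-2 and NC-1. Longer seed matches of 8 bases left 8 members in place of 22. The labels do not say whether equal replicate numbers pair the samples. Deviations from the group means correlated at 0.31, 0.10 and -0.26 for numbers 1, 2 and 3, and NC-3 correlated best with KD-2. These correlations cannot decide on a pairing, because deviations from a mean of 3 libraries are tied to each other. With the replicate block 0 members were called, and 5 in place of 10 were lower at an unadjusted p under 0.05. Over all 18444 tested genes, 2581 in place of 3310 were under it in either direction.

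Among the 40 named members the sign turned for 10, all with an adjusted p above 0.2 in each fit. Members outside that set turned too, such as Pcdha12, from -0.51 to 0.18 without KD-2 and NC-1. Pcdh18, 0.01 in the main setting, was -0.021 with DESeq2's size factors, -0.021 in DESeq2, -0.013 in limma-voom and -0.0024 with the replicate block. Pcdhgc3 was 0.0029 without the filter. With libraries left out, values ran from -0.14 to 0.21 for Pcdh18, -0.11 to 0.084 for Pcdhgc3, -0.12 to 0.10 for Cntnap1 and -0.51 to 0.044 for Pcdhgb1. They ran from -0.52 to 0.22 for Pcdhgc5, -0.53 to 0.11 for Pcdh17, -0.20 to 0.12 for Pcdh7 and -0.17 to 0.23 for Pcdhgb6. The widest ranges among these 10 were those of Pcdh10, from -1.62 to 0.79, and Kirrel2, from -2.70 to 0.18, each with its highest value when KD-2 and NC-1 were left out. Another 489 values of the 40 named members kept their sign and side of the threshold, and Pcdh1 passed it in DESeq2. The cause of these turns was not tested. Members at a few counts per library, among them most Pcdha genes, are limited by depth.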
